A study of Mus musculus with 5 samples.

Results

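The 35 genes described here encode the glucose and lactate transporters, the enzymes of glycolysis and of the pentose phosphate pathway, and Hif1a, a subunit of the hypoxia-inducible factor. They were taken by name from the GENCODE annotation of GRCm38, in which all 35 were found among 21937 protein-coding genes. The data were 5 lists of ChIPseq peaks of acetylated histones in mouse TM cells, OT-I CD8+ T cells (which carry a transgenic receptor for a peptide of ovalbumin, OVA) that were activated with that peptide and then given IL-15 to take on a memory type. WT was labelled wildtype (n = 2 libraries), and TPdh-/- was labelled PDH_Mutant (n = 3) and came from mice with a floxed Pdha1 allele, a subunit of the pyruvate dehydrogenase complex, crossed to a Cd4-cre transgene. The Cd4 promoter drives that Cre in developing T cells, so the deletion precedes the culture. The labels give no age or sex, the methods give young adult mice of both sexes, and whether WT mice carried Cre is not given in the sources used here. The antibody is given in the methods as one to acetyl-lysine on histones and in the labels as one to lysine 18.

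Glycolysis splits glucose into pyruvate in the cytosol. Pyruvate is either reduced to lactate by lactate dehydrogenase and exported, or carried into mitochondria, where the pyruvate dehydrogenase complex turns it into acetyl-CoA. The pentose phosphate pathway branches off at glucose-6-phosphate and yields NADPH and ribose. Activated T cells are known for a high rate of glycolysis, and acetylation of histone lysines is a mark of active promoters. The comparison of the groups asks whether the promoters of these genes carried the mark alike in cells with and without the complex.

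A gene was called in a library when a peak lay within 3000 bp of any of its transcription start sites. The strongest such peak was described by its fold enrichment, a ratio over the background that the peak caller estimated, and by its percentile, the share of peaks in the same list with a lower −log10 q. The lists held 15962 and 8859 peaks in WT replicates 1 and 2, against 4920, 5419 and 9418 in TPdh-/- replicates 1, 2 and 3. They carry no read numbers, so the depth behind them is unknown. Of 15 T cell markers, 15 and 12 were called in WT and 6, 7 and 12 in TPdh-/-, and each had a peak in at least 1 library. Myeloid markers were called for at most 1 of 9 genes in a library (Fcgr3). Of 5 CD4 T cell and NK cell markers, 3 and 2 were called in WT (Cd4 and Foxp3 in both, Zbtb7b in replicate 1) and 0 in all 3 TPdh-/- libraries. Of 10 erythroid and stromal markers, 1 to 3 were called in each library. The shares over all coding genes were 42.1% and 24.8% in WT and 15.3%, 16.5% and 27.9% in TPdh-/-.

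The sequences beneath the peaks are shown for 4 genes that had a peak in all 5 libraries. Slc2a3 encodes the glucose transporter GLUT3, Ldha the lactate dehydrogenase subunit that favours lactate, Pgls the lactonase of the oxidative pentose phosphate branch, and Tkt the transketolase that exchanges carbon units with glycolysis. Within the stretch shared by the strongest peaks of all 5 libraries, the longest part outside annotated exons was 286 to 378 bases long. Its central 250 bases are printed, read 5′ to 3′ on the strand of the gene from GRCm38.p6. The printed run lay at chr6:122801272-122801521 on the minus strand for Slc2a3, and on the plus strand at chr7:46846493-46846742 for Ldha, chr8:71591880-71592129 for Pgls and chr14:30549399-30549648 for Tkt. Capitals mark matches on either strand to any of 6 motifs. These were the hypoxia-inducible factor (HIF) motif ACGTG, the GC box with the letters GGGCGG, the box CCAAT, the motif of ETS factors with the letters CCGGAAG, the cyclic AMP response element (CRE) with the letters TGACGTCA, and the NRF1 motif.
Slc2a3: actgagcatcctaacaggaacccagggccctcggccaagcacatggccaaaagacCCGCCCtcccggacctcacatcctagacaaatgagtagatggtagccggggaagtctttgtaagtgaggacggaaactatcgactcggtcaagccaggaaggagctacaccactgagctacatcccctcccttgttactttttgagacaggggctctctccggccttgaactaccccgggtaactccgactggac
Ldha: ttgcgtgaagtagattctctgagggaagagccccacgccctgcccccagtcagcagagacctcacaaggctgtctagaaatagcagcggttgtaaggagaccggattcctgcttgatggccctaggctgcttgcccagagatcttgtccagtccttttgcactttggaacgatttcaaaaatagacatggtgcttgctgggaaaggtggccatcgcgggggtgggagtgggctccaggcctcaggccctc
Pgls: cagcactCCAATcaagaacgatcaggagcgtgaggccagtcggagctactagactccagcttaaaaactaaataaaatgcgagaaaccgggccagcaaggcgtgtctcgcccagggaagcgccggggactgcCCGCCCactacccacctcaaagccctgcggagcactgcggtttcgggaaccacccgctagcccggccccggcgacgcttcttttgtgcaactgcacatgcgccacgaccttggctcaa
Tkt: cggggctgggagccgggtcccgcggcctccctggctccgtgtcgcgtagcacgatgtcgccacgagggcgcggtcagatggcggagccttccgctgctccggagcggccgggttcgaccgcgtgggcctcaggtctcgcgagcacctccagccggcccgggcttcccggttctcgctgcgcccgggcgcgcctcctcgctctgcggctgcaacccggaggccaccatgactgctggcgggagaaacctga
The printed run of Tkt held 34 CpG dinucleotides and that of Pgls 20, against 10 in Slc2a3 and 7 in Ldha. Of the 7 genes called in all 5 libraries, 6 had a stretch shared by their strongest peaks (Slc2a3, Ldha, Pgls, Tkt, Pfkfb3 and Pfkm), and Hk1 had none. Over 250 bases around the centre of that stretch, exons included, 3 of 6 held a GC box (Slc2a3, Pgls and Pfkm) and 0 of 6 the HIF motif. Of 2273 coding genes with such a stretch, 42.6% and 20.3% did. The motif matches are a description of the letters and not of a bound factor.

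Promoters of the 3 genes with no peak in any library, Ldhb, Pgk1 and Taldo1, are set beside both listed promoters of Ldha, whose partner subunit Ldhb encodes. Pgk1 encodes the phosphoglycerate kinase that makes ATP, and Taldo1 the transaldolase. The 250 bases before a RefSeq start site of GRCm38.p6 are given, at chr7:46845554-46845803 and chr7:46846832-46847081 (plus strand, first and second Ldha promoter), chr6:142507958-142508207 (minus, Ldhb), chrX:106186850-106187099 (plus, Pgk1) and chr7:141391910-141392159 (plus, Taldo1), with the same motifs in capitals.
Ldha first: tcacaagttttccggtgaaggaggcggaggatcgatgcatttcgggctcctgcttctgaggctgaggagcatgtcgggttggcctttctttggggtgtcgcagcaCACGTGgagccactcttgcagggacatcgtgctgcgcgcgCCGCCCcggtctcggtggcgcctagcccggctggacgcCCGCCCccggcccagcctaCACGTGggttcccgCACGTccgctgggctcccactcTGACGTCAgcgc
Ldha second: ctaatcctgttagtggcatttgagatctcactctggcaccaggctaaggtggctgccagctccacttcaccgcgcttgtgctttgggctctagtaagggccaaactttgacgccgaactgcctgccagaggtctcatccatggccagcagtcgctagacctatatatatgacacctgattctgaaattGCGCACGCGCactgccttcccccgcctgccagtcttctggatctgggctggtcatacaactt
Ldhb: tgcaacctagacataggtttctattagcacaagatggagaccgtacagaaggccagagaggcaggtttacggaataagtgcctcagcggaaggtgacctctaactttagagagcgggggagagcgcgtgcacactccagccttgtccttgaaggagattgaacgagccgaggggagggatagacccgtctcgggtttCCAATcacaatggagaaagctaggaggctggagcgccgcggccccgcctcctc
Pgk1: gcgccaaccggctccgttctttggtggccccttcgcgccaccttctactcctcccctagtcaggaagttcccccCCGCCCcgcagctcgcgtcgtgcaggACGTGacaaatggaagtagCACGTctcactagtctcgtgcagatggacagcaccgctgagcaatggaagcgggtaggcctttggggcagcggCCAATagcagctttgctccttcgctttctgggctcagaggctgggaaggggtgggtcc
Taldo1: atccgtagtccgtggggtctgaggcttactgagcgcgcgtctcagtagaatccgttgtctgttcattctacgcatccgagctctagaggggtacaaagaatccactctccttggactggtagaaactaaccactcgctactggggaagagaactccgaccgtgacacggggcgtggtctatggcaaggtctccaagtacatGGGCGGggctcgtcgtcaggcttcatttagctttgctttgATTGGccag
The first Ldha promoter held 5 matches to the HIF motif, besides 2 GC boxes and 1 CRE. Of the 5 matches, 4 came from 2 copies of the palindromic E-box (CACGTG) that are read on both strands. Among the strongest promoter peaks of the libraries, that of TPdh-/- replicate 3 alone touched the first promoter. WT replicate 1 had 2 promoter peaks at Ldha, of which only the stronger was checked. The second Ldha promoter, overlapped by the strongest peaks of 4 libraries, held no HIF match and no GC box but 1 NRF1 match. The promoter of Pgk1 held 2 HIF matches, 1 GC box and 1 CCAAT box, and the promoters of Ldhb and Taldo1 held no HIF match and 1 CCAAT box each. CpG counts were 25 and 9 for the first and second Ldha promoter, 14 for Ldhb, 17 for Pgk1 and 16 for Taldo1, against a median of 10 over 20145 promoters of coding genes. Of 49 promoters listed for 34 of the 35 genes (Slc2a3 had no entry), 38.8% held the HIF motif, 12.2% the E-box, 57.1% the GC box and 34.7% the CCAAT box, where 18.0%, 6.79%, 44.1% and 35.04% of all coding promoters did. The ETS motif, the CRE and the NRF1 motif were in 6.12%, 2.04% and 6.12% of them, against 9.28%, 1.99% and 5.35%. The 49 promoters had a median CpG count of 14 and a median GC content of 59.6%, against 10 and 56% over all coding promoters. Every one of these motifs but CCAAT holds a CG, and whether base content accounts for the motif shares was not tested. Some of the 49 overlap each other, as for Eno1 and Aldoa.

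Promoters of the pathway were called more often than coding promoters at large in every library. In WT, 31 of 35 genes were called in replicate 1 (88.6%, against 42.1% of coding genes) and 19 in replicate 2 (54.3%, against 24.8%). In TPdh-/-, 11 were called in replicate 1 (31.4%, against 15.3%), 9 in replicate 2 (25.7%, against 16.5%) and 19 in replicate 3 (54.3%, against 27.9%). In bulk chromatin, fewer cells with the mark and less of the mark per cell cannot be told apart. The groups overlapped, since WT replicate 2 and TPdh-/- replicate 3 had the same number of genes called. WT averaged 25 ± 8.49 genes (SD, n = 2) against 13 ± 5.29 for TPdh-/- (SD, n = 3), a ratio of 0.52 where the ratio over all coding genes was 0.595. The order of the libraries was nearly that of the lengths of their lists. When each list was cut to its strongest 4920 peaks, 10 and 10 genes were called in WT and 11, 8 and 14 in TPdh-/-, so the difference of the mean counts turned from 12 in favour of WT to -1. The share of coding genes called was then 19.9% and 17.1% in WT and 15.3%, 15.8% and 18.7% in TPdh-/-.

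**Figure D1:**
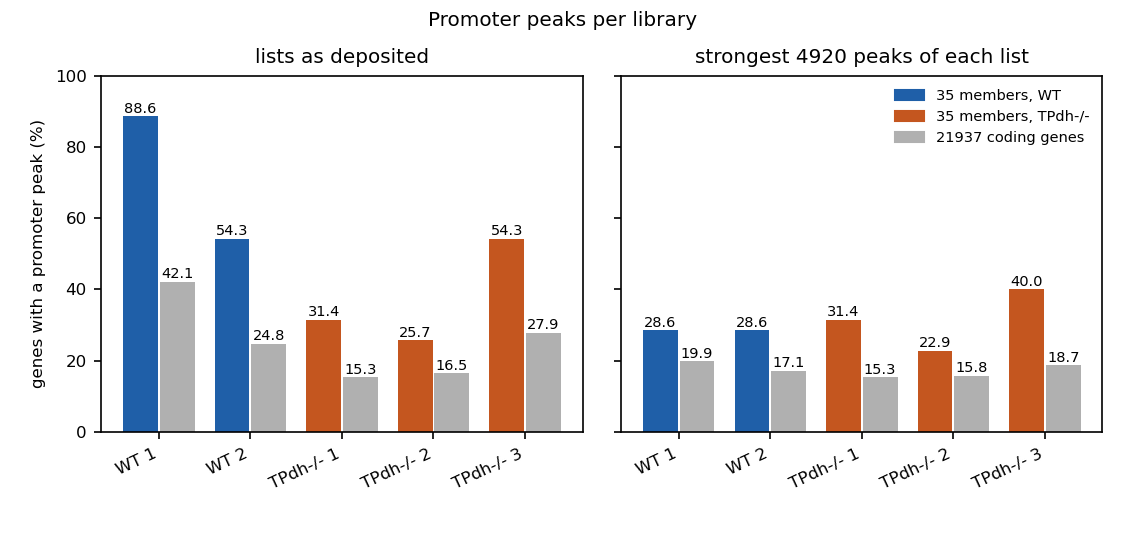
Percentage of the 35 genes and of 21937 coding genes (y axis) with a promoter peak in each of 5 libraries (x axis), for the lists as deposited and for the strongest 4920 peaks of each, 1 bar per library with no error bar. As deposited, the 35 genes reach 88.6% in WT replicate 1 and 25.7% in TPdh-/- replicate 2, while at equal length they lie between 22.9% and 40.0% and the groups overlap.

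By presence alone, 7 genes were called in all 5 libraries, namely Slc2a3, Hk1, Pfkm, Pfkfb3, Ldha, Pgls and Tkt (20%, against 10.9% of coding genes). Another 3 were called in both WT libraries and in no TPdh-/- library (8.57%, against 2.21%), and these were Bpgm, Eno1 and Rpia. Without TPdh-/- replicate 3 they would be 6, with Pfkl, Aldoa and Pgam1, and without WT replicate 2 they would be 12. Leaving out a library can only keep or raise such a count, and the share of coding genes was not computed there. No peak was called in any library for 3 genes (8.57%, against 56.7%), a count that rises to 12 without WT replicate 1. That library alone called 9 genes (25.7%, against 11.2%), namely Hk2, Adpgk, Gpi1, Aldoc, Gapdh, Pkm, Slc16a1, Pgd and Hif1a. The remaining genes were called in 2 libraries (Slc2a1, Pfkfb4, Tpi1 and Slc16a3), 3 (Pfkl, Aldoa, Pgam1, Eno3 and Rpe) or 4 (Hk3, Pfkp, Pfkfb2 and G6pdx).

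**Figure D2:**
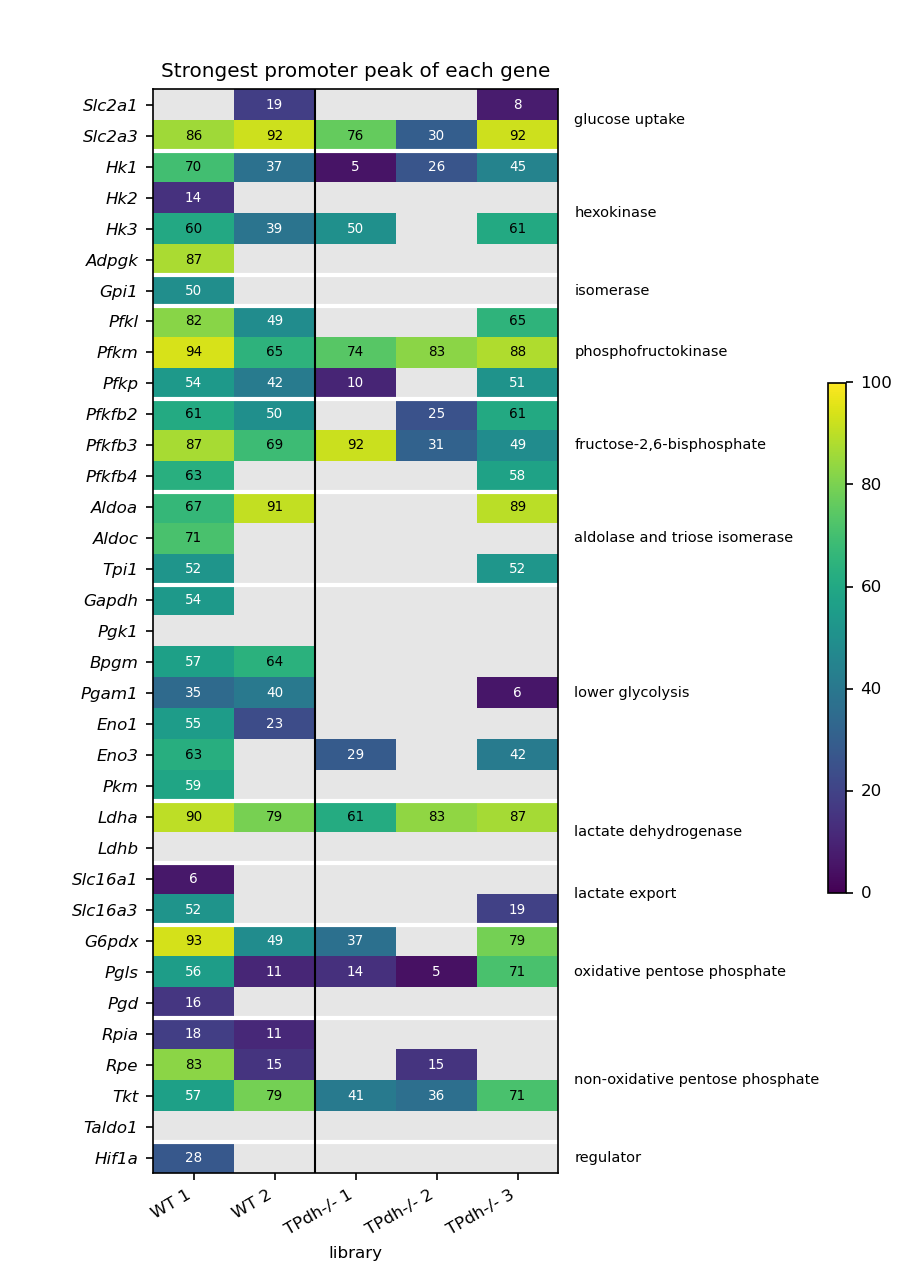
Percentile of the −log10 q of the strongest promoter peak within its own list (colour and printed number, 0 to 100) for 35 genes (rows, by pathway step) in 5 libraries (columns), grey where no peak was called. The column of WT replicate 1 is nearly filled, with 31 genes, and TPdh-/- replicate 2 has the fewest, with 9.

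Glucose enters through Slc2a3 and Slc2a1, and the promoter of the first was called far more often. Slc2a3 (chromosome 6, 122727809 to 122801640, minus strand) had a fold enrichment of 2.93 and 3.48 in WT and of 3.17, 2.68 and 3.36 in TPdh-/-. Its percentiles were 85.6 and 92.3 in WT and 76.4, 29.9 and 92.2 in TPdh-/-, so that TPdh-/- replicate 2 was low and the groups overlapped. The peak covered the start site in all 5 libraries. Slc2a1, which encodes GLUT1, was called only in WT replicate 2 (percentile 18.7) and TPdh-/- replicate 3 (7.69), by weak peaks that ended 2365 and 2628 bp upstream of the start site, and within 1000 bp of a start site it had none.

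The hexokinases trap glucose as glucose-6-phosphate, and Hk1 was the one called throughout in the main setting. At a −log10 q of at least 2, Hk1 was called in 3 libraries. With peaks assigned to the nearest start site alone, Hk1 was called in both WT libraries and in no TPdh-/- library. Its percentiles were 69.6 and 37.3 in WT and 5.19, 26.5 and 44.9 in TPdh-/-, with folds of 2.70 and 2.49 and of 2.38, 2.47 and 2.59. In WT replicate 2 the strongest peak lay at another start site of the gene than in the other 4 libraries, so these values do not follow 1 site. Hk3 was called in both WT libraries (percentiles 60.3 and 38.6) and in TPdh-/- replicates 1 (50.3) and 3 (60.6), and its strongest peaks lay inside the gene, from 1463 to 3875 bp downstream of the nearest coding start site, with folds of at most 2.02. Hk2, the isozyme known to be induced in activated T cells, had a peak in WT replicate 1 alone, at percentile 14.4 and a fold of 2.05. Adpgk, an ADP-dependent glucokinase, was also called there alone, but at percentile 87.2 with a fold of 3.05, and its nearest peak in the other 4 libraries was 174197 to 175357 bp away. Gpi1, the isomerase of the next step, had a peak in that library whose near edge was 2986 bp upstream, at percentile 49.6.

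Phosphofructokinase is the committed step of glycolysis, and all 3 of its genes were called in both WT libraries. Pfkm had percentiles of 93.9 and 64.5 in WT and of 73.9, 82.7 and 88.1 in TPdh-/-, the only one of the 7 genes called throughout with a lower mean in WT (79.2 ± 20.8, SD, n = 2, against 81.6 ± 7.20, SD, n = 3), although the groups overlapped. Its peak began 52 to 221 bp downstream of a coding start site and was shared with Senp1, a SUMO protease gene that starts in the opposite direction nearby, so it cannot be given to Pfkm alone. Pfkl was called in WT (percentiles 82.1 and 48.7) and in TPdh-/- replicate 3 (65.1). Pfkp was called in WT (54.1 and 41.7) and in TPdh-/- replicates 1 (10.5) and 3 (51.3), with folds of 2.00 to 2.23 and peaks at different start sites.

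The Pfkfb genes encode the enzymes that make and remove fructose-2,6-bisphosphate, the activator of phosphofructokinase. Pfkfb3, the form that mostly acts as a kinase, was called in all 5 libraries, at percentiles of 86.8 and 68.6 in WT and of 92.1, 31.5 and 48.8 in TPdh-/-. The highest value and the lowest were both in TPdh-/-, where folds were 3.32, 2.42 and 2.52 against 2.91 and 2.71 in WT. Pfkfb2 was called in WT (61.1 and 49.9) and in TPdh-/- replicates 2 (25.2) and 3 (60.9) by a peak upstream of a coding start site that also lay at the promoter of Yod1, a deubiquitinase gene. Pfkfb4 was called in WT replicate 1 (63.0) and TPdh-/- replicate 3 (57.7).

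Aldolase and triose phosphate isomerase split and interconvert the 3-carbon sugars. Of their 3 genes, 0 were called in TPdh-/- replicates 1 and 2, where 15.3% and 16.5% of coding genes were. Aldoa had percentiles of 66.8 and 90.9 in WT and of 89.5 in TPdh-/- replicate 3, from a peak that also reached the promoter of Fam57b. Tpi1 had values of 52.1 in WT replicate 1 and 52.4 in TPdh-/- replicate 3. Aldoc was called in WT replicate 1 by a peak 3883 bp downstream of its nearest coding start site that was shared with Pigs and reached its window through a non-coding transcript.

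Lower glycolysis, from Gapdh to Pkm, comprised 7 of the genes. Of these, 6 and 3 were called in WT (against 42.1% and 24.8% of coding genes) and 1, 0 and 2 in TPdh-/- (against 15.3%, 16.5% and 27.9%). The counts of TPdh-/- replicates 1 and 3 were near the share of coding genes, and that of replicate 2 was below it. With 7 genes such counts are small, and no test was run on them. Bpgm, which makes and degrades 2,3-bisphosphoglycerate (chromosome 6, 34476207 to 34505613, plus strand), had percentiles of 56.7 and 63.8 in WT and was not called in TPdh-/-. Its WT folds were 2.74 and 3.10, and both peaks covered the start site. Eno1, the enolase of most tissues (chromosome 4, 150236721 to 150248879, plus strand), had percentiles of 55.4 and 23.2 in WT, with folds of 2.19 and 2.16, and was not called in TPdh-/-. Pgam1, the phosphoglycerate mutase (chromosome 19, 41911923 to 41918660, plus strand), had percentiles of 34.6 and 40.3 in WT, and only TPdh-/- replicate 3 had a peak, at 5.95. Thus all WT values of these 3 genes lay above all TPdh-/- values, with uncalled genes placed at 0. The same held for 9.15% of all coding genes, and with lists of equal length for 0 of the 35 genes. Gapdh and Pkm, which encode glyceraldehyde-3-phosphate dehydrogenase and the pyruvate kinase of proliferating cells, were called in WT replicate 1 alone, at percentiles of 54.2 and 58.9. Eno3, the muscle enolase, was called in WT replicate 1 (62.6) and TPdh-/- replicates 1 (28.6) and 3 (41.6), from a peak upstream that was shared with Pfn1, a gene of an actin-binding protein.

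Pgk1 was not called in any library, and its nearest peak was 27580 bp from a start site in WT replicate 1 and 897068 to 958220 bp away in the others. It lies on chromosome X, and the labels do not give the sex of the mice.

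At the lactate step, Ldha (chromosome 7, 46841475 to 46855627, plus strand) was called throughout. Its percentiles were 90.0 and 79.4 in WT and 61.4, 83.5 and 86.6 in TPdh-/-, and its folds were 3.38 and 3.07 against 3.13, 3.31 and 3.25. The groups overlapped on both scales. The strongest peaks lay between positions -313 and 1025 relative to a coding start site (negative upstream), downstream of most of the first promoter printed above. Ldhb had no peak nearer than 31126 to 149361 bp. Of the lactate transporters, Slc16a3 (MCT4) was called in WT replicate 1 (51.6) and TPdh-/- replicate 3 (19.2), and Slc16a1 (MCT1) in WT replicate 1 alone, at percentile 6.36.

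The oxidative branch of the pentose phosphate pathway makes NADPH. G6pdx, its first and rate-limiting enzyme, had percentiles of 93.4 and 48.6 in WT and of 36.9 and 79.1 in TPdh-/- replicates 1 and 3, and its fold of 4.16 in WT replicate 1 was the highest of all 89 pairs of a gene and a library that were called. That peak also reached the promoter of Ikbkg, which starts on the opposite strand. Pgls was called throughout, at 55.8 and 10.8 in WT and 13.8, 4.55 and 71.2 in TPdh-/-, so the spread within each group was wider than the difference between their means (33.3 against 29.9). Pgd, the second dehydrogenase of the branch, was called in WT replicate 1 alone, at 16.0.

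In the non-oxidative branch, Tkt (chromosome 14, 30548359 to 30574720, plus strand) had percentiles of 56.8 and 78.9 in WT and of 41.2, 36.4 and 71.2 in TPdh-/-. The values of TPdh-/- replicates 1 and 2 were below both WT values, and that of replicate 3 lay between them. Rpia, the ribose-5-phosphate isomerase (chromosome 6, 70765720 to 70792232, minus strand), had weak peaks in WT, at percentiles 18.4 and 11.5 with folds of 2.31 and 2.49, and was not called in TPdh-/-. Rpe, the epimerase, was called in WT (82.7 and 15.1) and in TPdh-/- replicate 2 (15.1). Taldo1 had no peak nearer than 13823 bp in WT replicate 1 and 46708 to 46979 bp in the other 4 libraries. Hif1a, the transcription factor subunit that activates many glycolytic genes in low oxygen, was called in WT replicate 1 alone, at percentile 27.6.

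**Figure D3:**
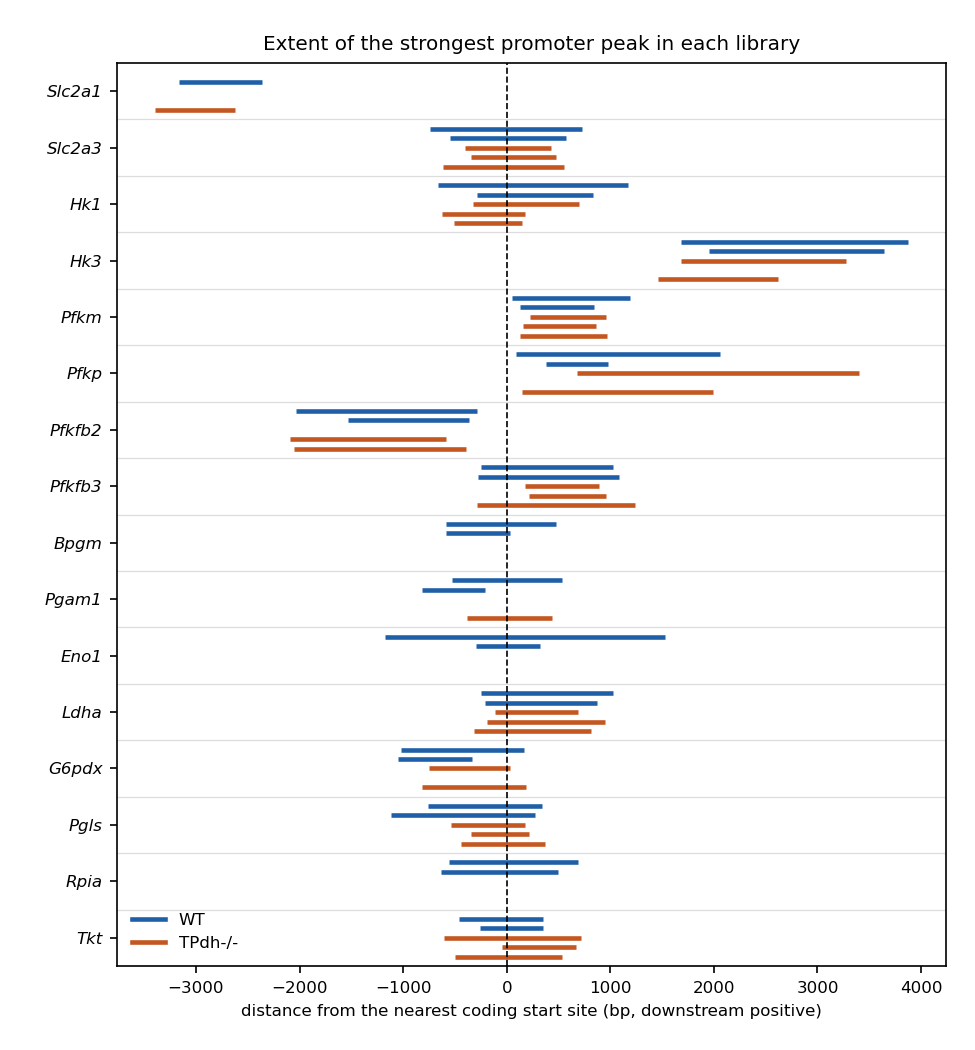
Extent of the strongest promoter peak (bars, 1 per library, WT above TPdh-/- within each gene) relative to the nearest coding transcription start site (dashed line, x axis in bp), for genes called in at least 4 libraries and 5 further genes of the text. Peaks of Slc2a3, Ldha and Tkt span the start site in all 5 libraries, while those of Slc2a1, Hk3 and Pfkfb2 lie to 1 side of it in every library that called them.

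Over all 5 libraries, 54 of the 89 strongest peaks covered a coding start site of their gene. Peaks were 562 to 2731 bp wide and 1.76 to 4.16-fold enriched. If only peaks that cover an annotated start site are taken, 24 and 12 genes were called in WT (68.6% and 34.3%, against 34.4% and 18.3% of coding genes) and 6, 6 and 13 in TPdh-/- (17.1%, 17.1% and 37.1%, against 10.9%, 12.3% and 21.5%). Bpgm, Eno1 and Rpia were then still called in both WT libraries and in no TPdh-/- library. At a −log10 q of at least 2 these genes were Bpgm and Pgam1, without Eno1 and Rpia, and with lists of equal length there were 0.

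Called promoters of the pathway had a lower median percentile than called coding promoters in every library. The medians were 58.9 against 66.9 and 48.6 against 62.9 in WT, and 41.2 against 60.8, 29.9 against 63.0 and 60.6 against 63.7 in TPdh-/-. By median fold they were lower in 4 libraries, while in TPdh-/- replicate 3 the median was 2.82 against 2.75. How often a gene called in WT replicate 1 was also called in TPdh-/- went with its percentile there. Of 8 genes at or above percentile 75, 87.5% were called in at least 1 TPdh-/- library, as were 92.1% of 3655 coding genes of that range. Between 50 and 75 it was 68.8% of 16 genes and 68.3% of 2748. Below 50, it was 14.3% of 7 genes (Slc16a1, Hk2, Pgd, Rpia, Hif1a, Pgam1 and Gpi1, of which Pgam1 was called), against 37.2% of 2839.

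Percentiles did not overlap between the groups for 4 genes, all higher in WT, namely Bpgm, Pgam1, Eno1 and Rpia (11.4%, against 9.15% of coding genes), and for 0 genes in the other direction (against 0.16%). At a −log10 q of at least 2 the count was 2, and with lists of equal length it was 0, where 2.65% of coding genes were higher and 1.83% lower in WT. Without WT replicate 1 it was 8, without WT replicate 2 it was 24, and without TPdh-/- replicate 3 it was 12. Fewer libraries make separation easier by construction. The share of coding genes was not computed for these counts, so they are not a result about the pathway. An exact permutation test of 1 gene over 5 libraries, 2 against 3, cannot give a two-sided p below 0.2, which is the value of these 4 genes, so no single gene could pass 0.05. The CD4 T cell markers Cd4 and Foxp3 were called in the same 2 libraries as Bpgm, Eno1 and Rpia, and whether their cells contributed to these peaks was not tested.

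The 7 genes called in all 5 libraries allowed their folds to be compared. Promoters that any library left uncalled did not enter, and each fold is a ratio over its own library's background. The comparison therefore cannot register a peak missing from a library, and a change common to all of a library's chromatin need not appear in it. By limma on log2 fold enrichment, 0 of the 7 passed an adjusted p of 0.05, as did 0 of 2390 coding promoters in either direction (0.0% higher and 0.0% lower in WT), while 212 of the 2390 and 0 of the 7 had an unadjusted p under 0.05. On the log2 scale, WT minus TPdh-/-, Tkt had the highest estimate (0.09 ± 0.11, SE, adjusted p = 0.85) and Pgls the lowest (-0.10 ± 0.11, adjusted p = 0.81). Ldha, at -0.0026 ± 0.10 (adjusted p = 0.996), had nearly equal means, 1.69 in each group. The estimates of Slc2a3 (0.06 ± 0.11), Hk1 (0.06 ± 0.10), Pfkfb3 (0.04 ± 0.12) and Pfkm (-0.06 ± 0.10) were likewise smaller than their standard errors. The median estimate was 0.04 for the 7 genes and 0.03 for the 2390 promoters. It became -0.01 for the 7 genes without WT replicate 1, and it was -0.04 without TPdh-/- replicate 2, when 10 of the 35 genes could be tested. On the percentile scale the median difference was 18.2 for the 7 genes and 9.21 for the 2390. It was 6.88 when peaks were ranked by fold, and 0.51 with lists of equal length for the 4 genes then called throughout (Slc2a3, Pfkm, Pfkfb3 and Ldha).

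**Figure D4:**
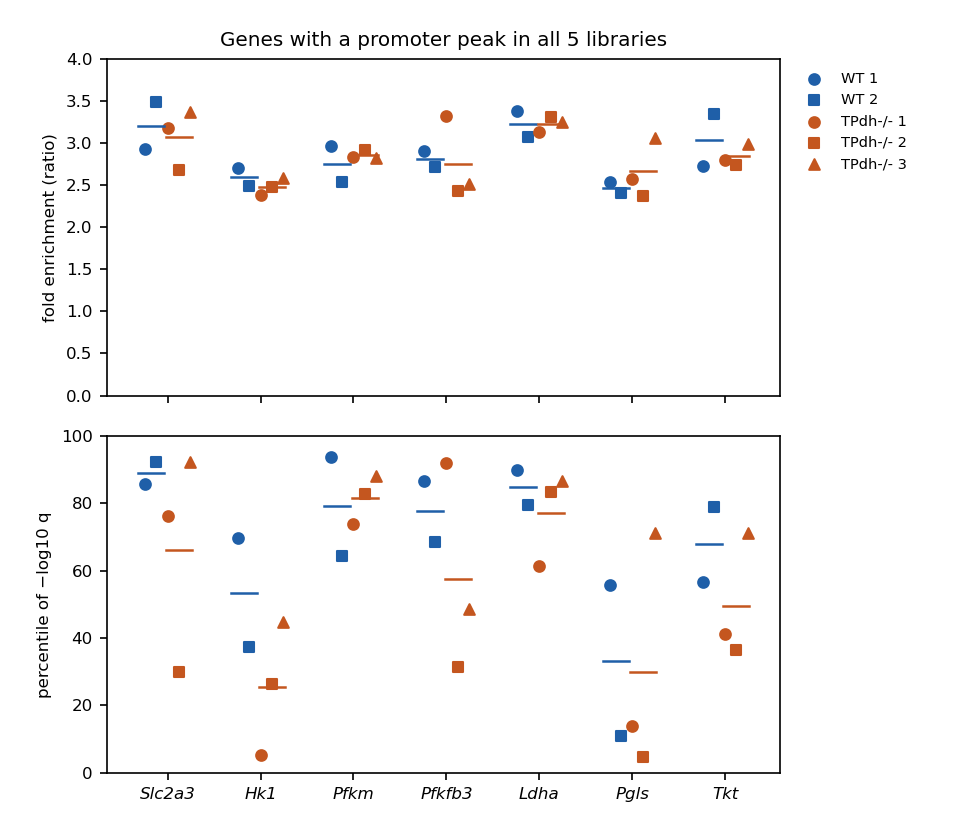
Fold enrichment (upper axis, ratio) and percentile of −log10 q (lower axis) of the strongest promoter peak for the 7 genes called in all 5 libraries, 1 point per library and a line at each group mean. Folds lie between 2.38 and 3.48 with overlapping groups for each gene, whereas percentiles range from 4.55 to 93.9.

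Related genes show how the 35 compare with their neighbours in metabolism. For comparison, 42.1% and 24.8% of coding genes were called in WT and 15.3%, 16.5% and 27.9% in TPdh-/-. A peak was called in all 5 libraries for 10.9% of coding genes and in no library for 56.7%. Of 17 isozymes restricted to other tissues, such as the testis forms Pgk2 and Ldhc, 3 and 1 were called in WT and 1, 0 and 1 in TPdh-/-, and 14 had no peak in any library. The exceptions were Gapdhs, called in 4 libraries, and Eno2 and Pfkfb1, called in WT replicate 1. Of 21 regulators of glycolysis, 14 and 8 were called in WT and 6, 4 and 8 in TPdh-/-, and 4 were called throughout. Among these, Txnip, which restrains glucose uptake, was at percentiles of 97.1 and 95.7 in WT and of 91.4, 97.6 and 94.0 in TPdh-/-, with overlapping groups. Max, the partner of Myc, was at 95.2 and 90.6 and at 93.2, 70.9 and 76.9. Usf1 and Egln2 were the others called throughout, and Myc itself was called in 4 libraries. Of 24 genes of branches from glycolysis (glycogen, hexosamine, serine and glycerol phosphate metabolism), 16 and 5 were called in WT and 3, 5 and 10 in TPdh-/-, with Gpd2 and Psph called throughout. In each of these lists, as among the 35 genes, WT replicate 1 had the most genes called.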

How the data were processed

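ChIPseq of acetylated histones was analysed in 5 libraries, 2 WT and 3 TPdh-/-, fewer than the study names per condition. The authors aligned reads with BWA-mem 0.7.17 to GRCm38/mm10, kept uniquely mapping reads outside blacklisted regions with SAMtools 1.15.1, and called broad peaks in each library with MACS2 2.2.6. The deposited fold enrichment is a ratio over the estimated background, and the deposited significance is −log10 p and −log10 q. The authors' reads were not used here, and no depth or counting interval can be given.

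Peaks that overlapped by at least 1 bp the 3000 bp around any GENCODE start site were assigned with Python 3.11.15, numpy 2.4.6 and pandas 2.3.3. For each gene and library the peak with the highest −log10 q was kept, and its percentile was taken within its own list. Log2 fold enrichment, with no pseudocount, was compared with limma 3.58.1 in R 4.3.3 over the 2390 coding promoters with a peak in all 5 libraries, with Benjamini-Hochberg adjustment at 0.05. Single genes were compared by an exact permutation test over 10 splits. Promoter assignment and limma were checked on simulated data. For Aldoa the record with most transcripts was kept. The other, a read-through record, was left out, and it had 0 promoter peaks in each library.

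The genes, lists, tests and motifs were chosen with earlier results of these data known. Every gene is given by its number of libraries, and values in each library are given for genes that led a step, separated the groups or differed from their isozymes. The alternatives tried were stricter q, lists of equal length, a window of 1000 bp, peak midpoints, protein-coding transcripts, ranking by fold, the highest or the centred fold, peaks in at least 2 libraries of each group, autosomes alone, a replicate block and leaving out each library. Assignment to the nearest start site and peaks covering a start site were added after the data were seen. The result of 1 further marker list is not reported here. Nothing in the labels states that the libraries came from separate mice, so their spread may be technical.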

Additional observations from a re-analysis of the deposited data

How the results depend on the processing

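The difference in the mean number of genes called, 12 as deposited, was 5.17 at a −log10 q of at least 5 and reversed to -1 with lists of equal length. It lay between 6 and 18 when each library was left out, and between 9.67 and 12.7 under the other planned or added assignments. Genes called in all 5 libraries numbered 7, but 4 with equal lists and 0 at a −log10 q of at least 5, and 7 to 10 without 1 library. They numbered 5 at a −log10 q of at least 2, 5 by nearest start site and 5 where the peak had to cover a start site. Genes called in both WT and no TPdh-/- library numbered 3, but 0 with equal lists and 0 at a −log10 q of at least 5, and 3 to 12 without 1 library. They numbered 2 at a −log10 q of at least 2 and 4 by nearest start site, with Hk1 added. Genes with no peak numbered 3, but 7 at a −log10 q of at least 2, 20 at 5, 15 with equal lists, 7 within 1000 bp, 5 by midpoint, 7 by nearest start site and 11 where the peak had to cover a start site, and 3 to 12 without 1 library. They numbered 4 with protein-coding transcripts and 2 of 33 on autosomes. Genes with higher percentiles in both WT libraries numbered 4, but 2 at a −log10 q of at least 2, 0 at 5, 0 with equal lists, and 4 to 24 without 1 library, and those with lower percentiles 0, or 0 to 1 without 1 library. These counts of genes can only stay or rise when a library is left out, and no share of coding genes was computed for that.

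The median log2 fold difference of 0.04 reversed to -0.00089 with peaks in at least 2 libraries of each group and ranged from -0.037 to 0.051 without 1 library. The median percentile difference of 18.2 (SD between libraries 18.3) was 28.9 at a −log10 q of at least 2, 6.88 when ranked by fold, 0.51 with equal lists, where 4 genes entered, and 8.98 to 24.1 without 1 library. limma called 0 coding promoters, except 1 higher in WT with peaks in at least 2 libraries of each group, 1 lower in WT at a −log10 q of at least 5, and 0 to 2 higher without 1 library. It called 0 of the 35 genes under each alternative that could test any, and at a −log10 q of at least 5 none could be tested. Replicate numbers 1 and 2 occur in both groups. Same-numbered libraries did not deviate together in fold (r = -0.03 across 2390 promoters, which are not independent replicates). This correlation does not register a shift shared by all promoters, so it cannot settle whether the numbers mark pairs or batches. Without TPdh-/- replicate 3, which has no same-numbered WT library, the mean difference was 15 genes and the median percentile difference 24.1. A replicate block on the remaining libraries entered limma alone and gave a median log2 fold difference of 0.0018 and 0 calls. The cause of these changes was not tested, apart from the smaller lists that the stricter settings leave by construction.

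What the lists limit is depth. Without read numbers, a gene without acetylation and a gene below the caller's threshold cannot be told apart, nor can list length and genotype in the counts per library. Peaks near Pfkm, Aldoa, Aldoc, Gapdh, Eno3, Pfkfb2 and G6pdx also lie at promoters of other coding genes. Reads that map to several places were removed by the authors, and mappability was not measured here.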
